A study of Rattus norvegicus with 20 samples.

Results

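Slc2a5 and 8 microglia genes, namely Aif1, Cx3cr1, Csf1r, Itgam, Cd68, P2ry12, Tyrobp and Trem2, were described in the central nucleus of the amygdala, a brain region that takes part in fear, stress and alcohol drinking, in P rats. P rats are the alcohol-preferring line, selected over generations for drinking ethanol by choice. Slc2a5 encodes the fructose transporter GLUT5, and the 8 others are widely used to mark microglia. A gene was represented by the probe sets that the array's annotation gave to that 1 symbol alone, and its main value was the probe set with the highest mean over all arrays. The 9 genes, of 14217 with a symbol of their own, had 12 probe sets. Slc2a5 was chosen by its difference between ethanol and water animals in these arrays, so that difference is a description with no test.

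The study asked how access to ethanol during adolescence bears on gene expression in this nucleus. The 10 ethanol animals had access to ethanol at 15% and 30%, the 10 water animals were given water only, and all 20 were P rats. Each animal gave 1 Affymetrix array, and the labels give neither sex nor an exact age. Values are RMA (robust multi-array average) summaries on a log2 scale, so a difference of 1 is a doubling of signal.

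The 20 arrays had medians of 7.92 to 7.97, and the median SE of a difference was 0.0624. In 3 arrays, of ethanol animal 5 and water animals 15 and 18, the mean correlation with the other arrays was under 0.99. Without them the difference between ethanol and water animals was -0.32 for Slc2a5 in place of -0.287, and -0.00303 for Cx3cr1 in place of 0.0527. It was 0.00813 for Cd68 in place of -0.0433, -0.0157 for Trem2 in place of 0.00882, -0.0313 for Csf1r in place of -0.0667 and -0.00702 for Tyrobp in place of -0.0445. The number of arrays limits the precision, and p-values set an effect against the spread between these animals.

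Microglia are the resident macrophages of the brain. They depend on signalling through the receptor Csf1r, sense neurons and injured cells through Cx3cr1 and P2ry12, and take up debris through receptors that include Trem2, which signals through the adaptor Tyrobp. In the brain, Slc2a5 is known as a gene of microglia, where it is used as a marker beside its role in fructose uptake in the intestine. RNA was taken from whole tissue, so fewer microglia and less RNA per microglial cell cannot be told apart.

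Promoter sequences were read for the 6 genes that a RefSeq table of promoters (build GRCr8) held: Slc2a5, Itgam, Trem2, Cd68, Cx3cr1 and Csf1r. Aif1, P2ry12 and Tyrobp were not analysed here for sequence. Each promoter runs from 250 bases before to 50 bases after the table's start of the gene, counted with the start as position 1. The letters AGGAAG, the core of sites for PU.1 (Spi1, a transcription factor of macrophages) and other ETS factors, were searched on both strands. They occurred in all 6 promoters, against 34.5% of the 33469 promoters in the table. The promoters of Slc2a5, of the integrin gene Itgam and of the lipid receptor gene Trem2 are shown because they hold the match at different distances from the start, with the match or its reverse complement in capitals. Slc2a5 is at chr5:165865929-165866228 on the plus strand, inside the span RefSeq gives the gene (chr5:165857412-165892928). Itgam is at chr1:192089342-192089641 on the plus strand and Trem2 at chr9:20151730-20152029 on the minus strand.
Slc2a5: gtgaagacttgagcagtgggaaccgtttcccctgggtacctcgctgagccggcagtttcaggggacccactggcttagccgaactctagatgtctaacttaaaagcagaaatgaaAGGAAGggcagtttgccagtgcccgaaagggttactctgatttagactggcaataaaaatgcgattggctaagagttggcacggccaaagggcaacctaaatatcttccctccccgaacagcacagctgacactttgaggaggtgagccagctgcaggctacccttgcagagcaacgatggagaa
Itgam: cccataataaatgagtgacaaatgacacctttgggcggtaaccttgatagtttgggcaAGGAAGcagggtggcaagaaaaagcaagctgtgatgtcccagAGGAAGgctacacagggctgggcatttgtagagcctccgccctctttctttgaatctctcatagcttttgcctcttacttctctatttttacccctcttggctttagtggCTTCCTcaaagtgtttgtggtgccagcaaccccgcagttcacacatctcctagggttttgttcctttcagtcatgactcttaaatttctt
Trem2: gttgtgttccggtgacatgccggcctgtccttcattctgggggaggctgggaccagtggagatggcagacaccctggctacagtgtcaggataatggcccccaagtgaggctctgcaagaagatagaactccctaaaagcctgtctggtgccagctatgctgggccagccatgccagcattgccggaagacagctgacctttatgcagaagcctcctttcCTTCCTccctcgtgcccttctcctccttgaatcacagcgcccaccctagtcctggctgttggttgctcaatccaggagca
Slc2a5 had 1 match, with its first base at position -135. Itgam had 3, at positions -192, -150 and -40, and Trem2 had 1, at -30. In Csf1r the match lay at -230, in Cd68 at 6 and in Cx3cr1 at 25. A match of letters is a description and does not show that a factor binds there.

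Slc2a5 was lower in ethanol animals than in water animals. The 10 ethanol animals had log2 values of 8.34, 8.34, 8.35, 8.34, 8.36, 8.36, 8.34, 8.33 and 8.36 in animals 1 to 9 and 8.56 in animal 10. The 10 water animals had 8.83, 8.30, 8.81, 8.54, 8.72, 8.64, 8.50, 8.78, 8.77 and 8.67 in animals 12 to 21. Every ethanol animal lay below the water mean, 9 of the 10 lay below all water animals but animal 13, and animal 13 was the lowest of all 20. The mean was 8.37 ± 0.0672 (SD, n = 10) with ethanol and 8.66 ± 0.168 (SD, n = 10) with water. The difference, ethanol minus water, was -0.287 (SE 0.0573), which puts the signal 1.22-fold higher with water. In the 3 runs of the accession order, which no label calls a batch and which hold both groups in equal number, it was -0.276, -0.311 and -0.261.

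The 9 ethanol animals other than animal 10 were unusually close to each other. Their Slc2a5 values spanned 0.0329 on the log2 scale. Over the 18625 probe sets whose mean lay above the 40th percentile (log2 7.14), the range of the 9 closest ethanol animals had a median of 0.301, and 2 probe sets, Slc2a5 included, were as tight or tighter. The other one had no gene symbol, a range of 0.0284 and a mean of 15.94, which 3 probe sets exceeded. In the water animals Slc2a5 had an ordinary spread, with a range of 0.334 for the 9 closest animals against a median of 0.328. The widest gap between neighbouring Slc2a5 values over all 20 animals was 0.137, between 8.363 and 8.5, with 9 ethanol animals and 1 water animal below it. Since Slc2a5 was chosen by its difference between the groups, this spread is a description too.

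**Figure D1:**
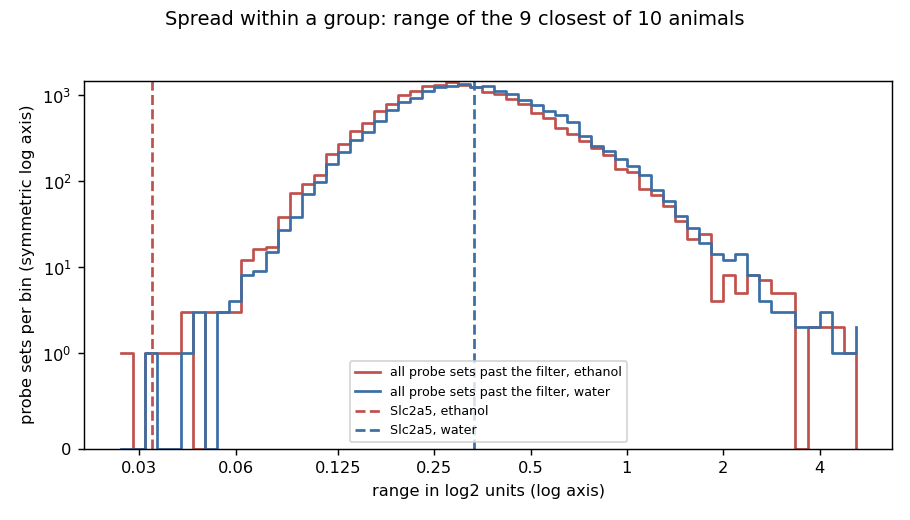
Histogram of the range of the 9 closest of 10 animals, in log2 units on a log axis, over 18625 probe sets in ethanol (red) and water (blue) animals, with probe sets per bin on a symmetric log axis. The dashed lines mark Slc2a5, at 0.0329 with ethanol, at the far low end of the distribution, and at 0.334 with water, near its middle.

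The differences of the other microglia genes were smaller than that of Slc2a5 and did not share 1 direction. Of the 8, 5 had a lower mean with ethanol and 3 a higher one (6 and 2 without the 3 arrays that stand apart), and their median difference was -0.0415, beside 0.0161 over all probe sets tested, 42.2% of which were lower. In the limma fit across all 18625 probe sets, 4 were called at an adjusted p under 0.05, which is 0.0215%, and 2393 had an unadjusted p under 0.05, which is 12.8%. Of the 8 members with a main probe set past the filter, 0 were called and 1, Slc2a5, was under the unadjusted threshold. These counts come from the contrast that chose Slc2a5 and are given as a description.

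**Figure D2:**
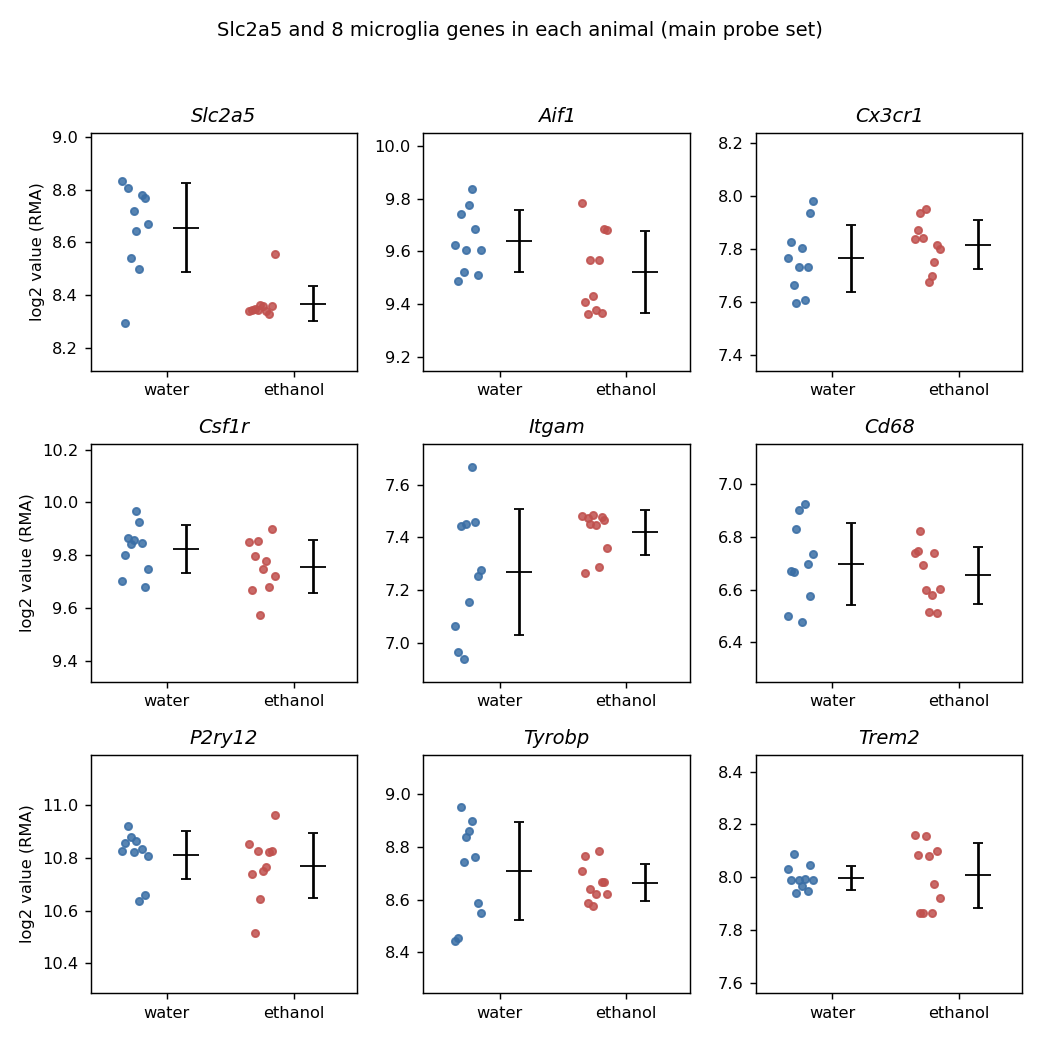
Log2 values of the main probe set of each of the 9 genes, 1 point per animal, with water animals in blue and ethanol animals in red; bars show the mean ± SD of 10 animals. The 2 groups overlap in every panel, and in the Slc2a5 panel 9 ethanol animals form a tight cluster near 8.34 with animal 10 above them.

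Among the receptors, Csf1r, which takes the survival signals Csf1 and Il34, ran from 9.57 to 9.90 with ethanol (median 9.76) and from 9.68 to 9.97 with water (median 9.85). The groups overlapped and the difference was -0.0667 (SE 0.0455). Cx3cr1, the receptor for neuronal fractalkine, ran from 7.67 to 7.95 with ethanol (median 7.83) and from 7.60 to 7.98 with water (median 7.75). Its difference was 0.0527 (SE 0.0513), in the direction opposite to Slc2a5, with 7 of the 10 animals given ethanol above the water mean. P2ry12, a receptor for nucleotides released from injured cells, ran from 10.51 to 10.96 with ethanol (median 10.79) and from 10.64 to 10.92 with water (median 10.83). The difference was -0.0397 (SE 0.0502), whereas the other P2ry12 probe set differed by 0.0771 (SE 0.0658), so the direction depended on the probe set. Trem2 ran from 7.86 to 8.16 with ethanol (median 8.03) and from 7.94 to 8.09 with water (median 7.99). Its means were nearly equal, with a difference of 0.00882 (SE 0.0443), and the other Trem2 probe set gave -0.0103 (SE 0.0496). The ethanol animals fell on both sides of the water animals here, with SDs of 0.122 and 0.0456.

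Tyrobp, the adaptor that carries the signal of Trem2, ran from 8.58 to 8.78 with ethanol (median 8.65) and from 8.44 to 8.95 with water (median 8.75). The ethanol animals lay inside the range of the water animals, and the difference was -0.0445 (SE 0.0622). Itgam, the alpha chain of complement receptor 3, ran from 7.26 to 7.48 with ethanol (median 7.46) and from 6.94 to 7.67 with water (median 7.27). It had the widest difference of the 8 genes, 0.152 (SE 0.077), with 9 of 10 ethanol animals above the water mean and all of them inside the water range. Aif1, which encodes the actin-binding protein Iba1, ran from 9.36 to 9.78 with ethanol (median 9.50) and from 9.49 to 9.84 with water (median 9.61). Its difference was -0.116 (SE 0.0611), the lowest of the 8, and 5 ethanol animals lay below every water animal. The other Aif1 probe set, which was under the filter, differed by -0.00609 (SE 0.057). Cd68, a lysosomal glycoprotein of phagocytes, was under the filter too, with a range of 6.51 to 6.82 with ethanol (median 6.65) and 6.48 to 6.93 with water (median 6.68). Its difference was -0.0433 (SE 0.0596).

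The direction of each of the 8 genes changed between runs of the accession order. Slc2a5 was chosen by its difference over these same animals, so its 3 values of 1 sign are no sign of stability and are not set against the others. Aif1 differed by -0.0634, -0.289 and 0.126, Csf1r by -0.0096, -0.205 and 0.0963, and Tyrobp by 0.0273, -0.177 and 0.0761. Itgam differed by 0.313, -0.00813 and 0.147, and Cx3cr1 by 0.158, 0.05 and -0.153. The third run held 2 animals per group, the first and the second 4 each.

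**Figure D3:**
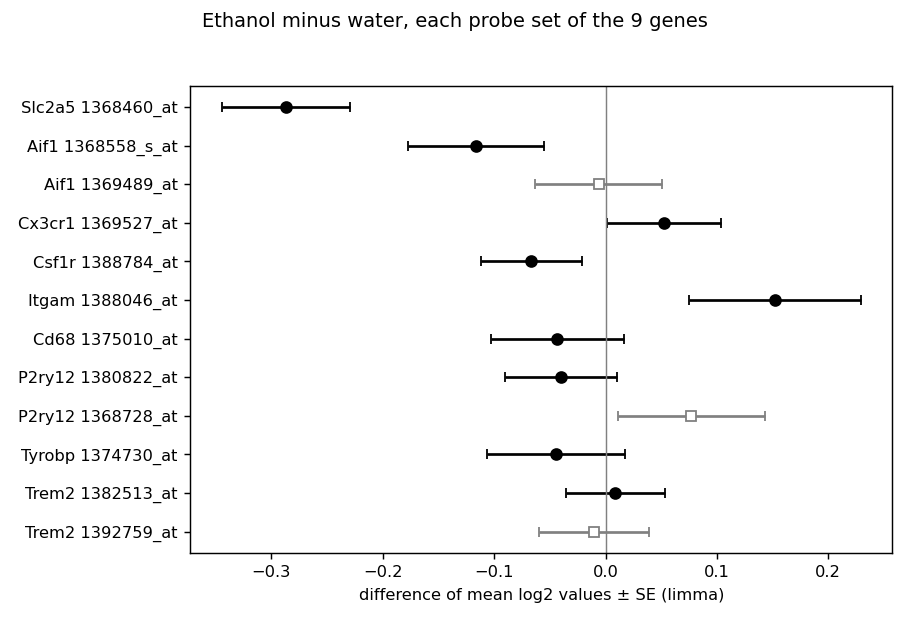
Difference of mean log2 values, ethanol minus water, with its SE from limma, for the 12 probe sets of the 9 genes; filled circles are main probe sets and open squares the others. Slc2a5 lies at -0.287, and the 11 others lie between -0.116 and 0.152.

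The mean of the 8 main probe sets in each animal, used here as a microglia score, was nearly the same in both groups. It was 8.58 ± 0.0448 (SD, n = 10) with ethanol and 8.59 ± 0.0685 (SD, n = 10) with water, a difference of -0.0121 (SE 0.0259). Ethanol animals ran from 8.53 to 8.68 and water animals from 8.50 to 8.69, so the groups overlapped throughout. With the score as a covariate the Slc2a5 difference was -0.283 (SE 0.0586), against -0.287 without it. A score that hardly differed between the groups, with a within-group r of 0.13 with Slc2a5, could hardly move it. The score averages genes that differed in both directions, and whether the amount of microglia differed was not tested. Slc2a5 minus the score differed by -0.275 (SE 0.0596).

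Whether Slc2a5 follows the other microglia genes from animal to animal was asked within groups, where the difference between group means plays no part. The genes were chosen with earlier results of these data known, so the choice may not be independent of the spread within groups. Over the 20 animals, taken as deviations from their group mean, Slc2a5 had a Pearson r of 0.22 with Aif1, 0.24 with Itgam, 0.18 with P2ry12, 0.10 with Tyrobp, and 0.08 with both Cx3cr1 and Trem2. It was -0.21 with Csf1r and -0.31 with Cd68. The 8 values had a median of 0.09, and the 18624 other probe sets a median of 0.01, with 95% of them between -0.38 and 0.42. All 8 genes lay inside that range. Slc2a5 varied less with ethanol (SD 0.0672) than with water (SD 0.168), and 9 ethanol animals spanned only 0.0329. The pooled coefficients and the limma fit on Slc2a5 thus rested mostly on the water animals and ethanol animal 10. With the log2 ratio of 3' to 5' probe sets of control genes, a sign of RNA quality, as a further term, the coefficient was -0.0125 for Aif1, 0.0113 for Itgam, -0.108 for Tyrobp and -0.409 for Csf1r, and the median of the 8 was -0.000601. In the limma fit with group and Slc2a5 as terms, 0 of the 7 microglia genes tested and 0 of 18624 probe sets (0%) passed an adjusted p of 0.05. An unadjusted p under 0.05 was reached by 478 probe sets (2.57%), and 0 of the 7 microglia genes were among them, their unadjusted p-values running from 0.302 to 0.769. The widest slope was that of Itgam, at 0.335 (SE 0.317) log2 units per unit of Slc2a5, with a limma adjusted p of 1.

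Of the 3 genes with a second probe set, P2ry12 and Trem2 had a higher coefficient with it and Aif1 a lower one. That of P2ry12 had a within-group r of 0.38 with Slc2a5, at the 95.6 percentile of the probe sets tested, and that of Trem2 an r of 0.40, at the 96.6 percentile. Both had a limma adjusted p of 1. Their main probe sets stood at the 77.3 and 61.7 percentiles. The second Aif1 probe set, under the filter, had an r of -0.02 in place of 0.22.

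In the water animals alone, where Slc2a5 varied most, the highest coefficient was that of Trem2, with r = 0.42 (two-sided permutation p = 0.222) and rho = 0.49 (p = 0.155). Without animals 13 and 18, the 2 farthest from the Slc2a5 median, its r was 0.68. Itgam had r = 0.31 (permutation p = 0.398) and rho = 0.20 (p = 0.586), and r = 0.52 without those animals. Aif1 had r = 0.21 (permutation p = 0.575) and rho = 0.18 (p = 0.615), with r = 0.24 without them. These coefficients were above 0 but within what permuted animals gave. Tyrobp had r = 0.16 (permutation p = 0.679) and rho = -0.03 (p = 0.946), and r = -0.19 without the pair. Cx3cr1 had r = 0.12 (permutation p = 0.754), rho = 0.05 (p = 0.89) and r = 0.16 without them, and P2ry12 had r = 0.05 (p = 0.886), rho = 0.08 (p = 0.839) and r = -0.21. Csf1r and Cd68 ran the other way, with r = -0.28 (permutation p = 0.442) and r = -0.33 (p = 0.349), rho = -0.26 (p = 0.468) and -0.43 (p = 0.218), and r = -0.40 and -0.39 without the pair. Of all probe sets, 542 had an unadjusted limma p under 0.05 in water animals and 0 an adjusted one, and the adjusted p of the 7 microglia genes ran from 0.997 to 0.998.

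In the ethanol animals there was little Slc2a5 spread to relate to anything, apart from animal 10. P2ry12 had r = 0.51 (permutation p = 0.176) with rho = -0.10 (p = 0.786), and r = -0.12 without animals 10 and 5, so this coefficient rested on animal 10. Aif1 had r = 0.35 (permutation p = 0.343), rho = 0.04 (p = 0.919) and r = 0.09 without the pair. Tyrobp had r = -0.28 (permutation p = 0.435), rho = -0.65 (p = 0.05) and r = -0.29. The rank coefficient of Tyrobp orders animals that differ by a few hundredths of a log2 unit in Slc2a5. Cd68 had r = -0.28 (permutation p = 0.493), rho = -0.39 (p = 0.264) and r = -0.68 without the pair. Itgam had r = -0.22 (permutation p = 0.574), rho = -0.12 (p = 0.759) and r = 0.08, and Trem2 r = -0.17 (p = 0.845), rho = 0.08 (p = 0.83) and r = 0.35. Csf1r had r = -0.14 (permutation p = 0.706), rho = -0.22 (p = 0.54) and r = 0.39, and Cx3cr1 r = -0.04 (p = 0.875), rho = 0.16 (p = 0.659) and r = -0.12. The limma adjusted p of all 7 genes tested was 0.998, with 760 probe sets under an unadjusted 0.05 and 0 under an adjusted one. The 2 groups made 16 relations in all. Whether the slope on Slc2a5 differed between the groups was tested as an interaction: 859 probe sets (4.61%) had an unadjusted p under 0.05, 0 an adjusted one, and the smallest unadjusted p of a microglia gene's main probe set was 0.141, for P2ry12.

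**Figure D4:**
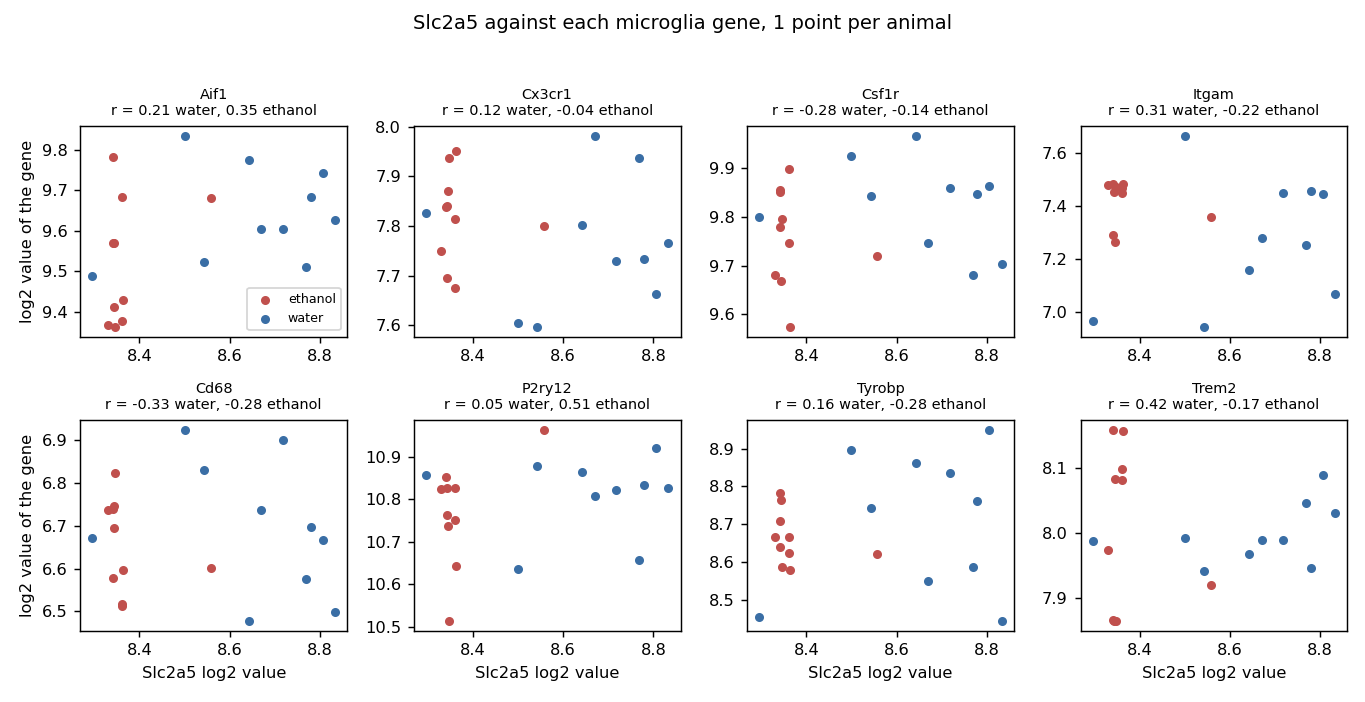
Log2 value of each of the 8 microglia genes against that of Slc2a5, 1 point per animal, with ethanol in red and water in blue and Pearson r in each group above the panel. The ethanol animals stand in a narrow column near 8.34 with animal 10 apart at 8.56, and no panel shows a line common to the water animals.

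Single animals moved these coefficients. Without water animal 13, the lowest in Slc2a5, the within-group r of Itgam was -0.09, that of Tyrobp -0.34, that of Aif1 0.04 and that of P2ry12 0.36. Without water animal 18 the r of Itgam was 0.513 and that of Aif1 0.368, and without water animal 12 that of Tyrobp was 0.314. Without the 3 arrays that stand apart it was 0.46 for Itgam and -0.18 for Cx3cr1. Without ethanol animal 10 the r of P2ry12 was 0.02. The median over the 8 genes was -0.0894 when both animals were left out, a choice made after the values were seen.

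By main probe sets, some of the microglia genes followed each other more closely than any followed Slc2a5. Of the 28 pairs among the 8 genes, 4 reached a within-group r of 0.4: Aif1 with Csf1r at 0.63, Csf1r with Tyrobp at 0.56, Itgam with Tyrobp at 0.48 and Aif1 with Tyrobp at 0.47. The 8 pairs with Slc2a5 held none of that size in either direction by main probe sets, but the second Trem2 probe set had 0.40. Whether 0 of 8 pairs differs from 4 of 28 was not tested. The microglia genes did not move as 1 block, however: the median over the 28 pairs was 0.11, 16 were above 0, and Cx3cr1 ran against Tyrobp at -0.55 and against Csf1r at -0.41. Each gene's r with the mean of the 7 others was highest for Aif1 (0.57), Tyrobp (0.53), Itgam (0.47) and Csf1r (0.46). It was 0.11 for Cd68, 0.01 for Trem2 and -0.07 for P2ry12, and lowest for Cx3cr1 (-0.43). In water animals Csf1r and Tyrobp had r = 0.81 and Itgam and Tyrobp r = 0.64, against 0.17 and -0.71 in ethanol animals. These pair coefficients are descriptions over animals that share their dissection and array, and their differences between groups were not tested.

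**Figure D5:**
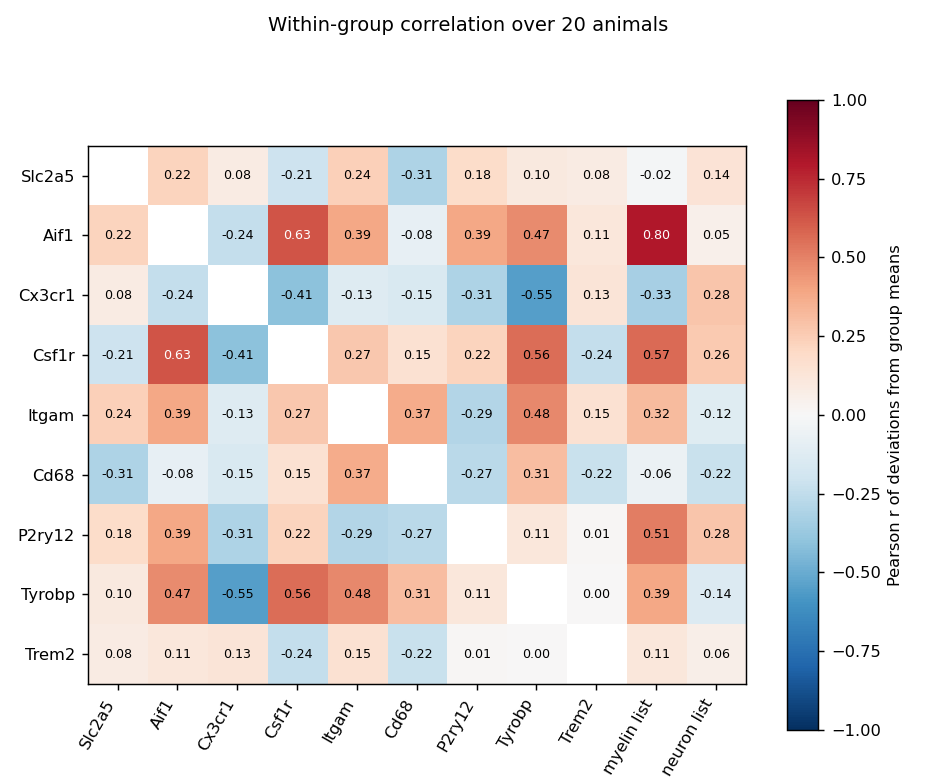
Pearson r of deviations from group means over 20 animals between each pair of the 9 genes, and with the mean of the myelin list (17 genes) and the neuron list (14 genes), coloured from -1 (blue) to 1 (red). The Slc2a5 row stays between -0.31 and 0.24. Pairs among Aif1, Csf1r, Itgam and Tyrobp run from 0.27 to 0.63, and Cx3cr1 with Tyrobp stands at -0.55. Aif1 reaches 0.80 with myelin.

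Genes of other cell types moved with several of the microglia genes. The mean of 17 oligodendrocyte and myelin genes ran from 10.27 to 11.81 with ethanol and from 10.94 to 12.07 with water, and all 17 had a lower mean with ethanol (median difference -0.376), beside 42.2% of all probe sets. Of the 17, 9 had an unadjusted limma p under 0.05 (52.9%, against 12.8% of all probe sets) and 0 were called. Within groups this mean had an r of 0.80 with Aif1, 0.57 with Csf1r, 0.51 with P2ry12, 0.39 with Tyrobp and 0.32 with Itgam, and of -0.02 with Slc2a5. With it as a covariate, the ethanol minus water difference was -0.0212 for Aif1, -0.02 for Csf1r, 0.00814 for P2ry12 and 0.201 (SE 0.0854) for Itgam, and that of Slc2a5 was -0.29 (SE 0.0645). Without the myelin term the Slc2a5 difference was -0.287, and a term with an r of -0.02 could hardly move it. Of 14 astrocyte genes 13 had a lower mean with ethanol by main probe set. The mean of the 14 had a within-group r of 0.57 with P2ry12, 0.55 with Aif1 and -0.01 with Slc2a5. Other probe sets of astrocyte genes past the filter differed by -0.232 to 0.222, so the direction of some genes depended on the probe set. Tyrobp had an r of 0.56 with a list of endothelial and mural genes of vessels and Itgam one of 0.53 with the meningeal list, both above their r with myelin, while Slc2a5 had -0.33 with the vessel list. The 3' to 5' ratio had a within-group r of -0.45 with Slc2a5 and of -0.51 with Aif1 and Itgam. With this ratio as a covariate the Slc2a5 difference was -0.302 (SE 0.053). Choroid plexus and ependyma genes were also lower with ethanol in 4 of 4, their mean running from 6.43 to 11.46 with ethanol and from 6.86 to 11.88 with water, and it had an r of -0.06 with Slc2a5. Meningeal genes were lower in 10 of 10, with an r of -0.25, and 13 of 14 neuron genes were higher, with an r of 0.14. An unadjusted limma p under 0.05 was reached by 0 of 10 meningeal genes (0%) and 2 of 14 astrocyte genes (14.3%). It was reached by 4 of 14 neuron genes (28.6%) and 2 of 4 choroid plexus and ependyma genes (50%), against 12.8% of all probe sets. In each of these lists 0 genes were called. The part of these cell types in the differences of the microglia genes was not tested beyond the covariate values given here.

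A wider list of 62 other microglia genes, 36 of which were tested, held 0 calls between ethanol and water animals in limma, with 2 genes at an unadjusted p under 0.05 (5.56%, against 12.8% of all probe sets). These were Tmem119, a surface marker of microglia that other macrophages lack, at -0.115 (SE 0.0472, limma adjusted p = 0.334), and the immunoglobulin-family receptor gene Cd48 at -0.213 (SE 0.0835, adjusted p = 0.32). In both, 9 of 10 animals with ethanol were under the mean of the water group. Of the 36, 24 had a lower mean with ethanol, and the median difference was -0.0261, beside 0.0161 over all probe sets. The 3 chains of complement C1q, which microglia make, differed by -0.0816 (SE 0.0682) for C1qa, 0.0321 (SE 0.0758) for C1qb and -0.0207 (SE 0.0605) for C1qc, with limma adjusted p-values of 0.615, 0.884 and 0.911. Spi1 had 0 probe sets annotated to it alone.

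The wider list moved with the microglia score, as lists of other cell types did, and had a coefficient near 0 with Slc2a5. Its mean had a within-group r of 0.69 with the score and of -0.05 with Slc2a5. The mean of the myelin list had an r of 0.65 with the score, that of the vessel list 0.61 and that of the meningeal list 0.51. Of the 36 genes, 17 had an r above 0.4 with the score, a higher share than the 17.3% of all genes. The share was higher still among myelin genes (17 of 17) and meningeal genes (8 of 10). The highest of the 36 were Cd53, a leukocyte tetraspanin, at 0.70, the lysosomal protease Ctsh at 0.67 and Ly86 at 0.65. The median r of the 36 with Slc2a5 was -0.03 and 0 were called in the association with it, beside 0 of all 18624 probe sets. Bin2, a membrane-bending protein of leukocytes, had the lowest r with Slc2a5, -0.51 (limma adjusted p = 1).

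Genes that signal to microglia gave 0 calls among 10 tested by their main probe sets, beside 0.0215% of all probe sets. An unadjusted limma p under 0.05 was reached by 0 of the 10, beside 12.8% of all probe sets. The Csf1r ligands Csf1 and Il34 differed by -0.0728 (SE 0.0457) and 0.0947 (SE 0.0495), and Cx3cl1, the ligand of Cx3cr1, by 0.0823 (SE 0.0701). Other probe sets past the filter gave -0.143 (SE 0.0547), -0.0109 (SE 0.0457) and -0.0103 (SE 0.0556) for Csf1, and 0.196 (SE 0.0875) in place of 0.113 (SE 0.065) for Sirpa, an inhibitory receptor of myeloid cells. A list of 21 genes of reactive microglia had 8 tested and 0 called. The mean was lower with ethanol in 7 of the 8, and the median difference was -0.0591. An unadjusted p under 0.05 was reached by 1 of them (12.5%, near the 12.8% of all probe sets), the phagocyte galectin gene Lgals3, at -0.638 (SE 0.227, limma adjusted p = 0.307).

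Other hexose transporters and enzymes of fructose use held 0 calls among 13 tested, with 5 at an unadjusted limma p under 0.05 (38.5%, against 12.8% of all probe sets) in mixed directions. Slc2a1, the glucose transporter of vessels and glia, differed by -0.166 (SE 0.055, limma adjusted p = 0.289). Slc2a3, the neuronal glucose transporter, and Slc2a13, a myo-inositol transporter, were higher by 0.167 (SE 0.0622, limma adjusted p = 0.314) and 0.172 (SE 0.0607, adjusted p = 0.305). In both all 10 ethanol animals lay above the water mean by the main probe set. Another probe set gave 0.0999 (SE 0.0664) for Slc2a13 and, under the filter, 0.257 (SE 0.0803) for Slc2a3. The glycolytic enzyme gene Aldoa differed by 0.0757 (SE 0.032, adjusted p = 0.345). Txnip, an inhibitor of glucose uptake, differed by -0.497 (SE 0.158, adjusted p = 0.284), with all 10 ethanol animals below the water mean. Khk, the kinase that starts fructose breakdown, differed by -0.0199 (SE 0.0635, adjusted p = 0.917). Within groups the median r of the 13 genes with Slc2a5 was -0.01, and that of Txnip was -0.10.

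Markers of other blood-borne and border cells were mostly under the filter. Of 17 lymphocyte and neutrophil markers 0 were tested, and of 11 markers of border macrophages, which lie along vessels and meninges, 1 was. That gene, Pf4, differed by -0.0975 (SE 0.179) and had an r of -0.19 with Slc2a5. Haemoglobin Hbb differed by -0.0619 (SE 0.163), with an r of -0.23.

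The genes whose pattern was most like that of Slc2a5 were ranked by within-group r over 20 animals among 10151 genes. They were Fkbp3, a nuclear immunophilin, at 0.75, Agfg1 at 0.66, mrpl24 at 0.64, Pno1, Kin and Rrp8 at 0.61, Zfp143 and Slc24a1 at 0.60, Matcap1 at 0.59 and Tomm20 at 0.58. The lowest were Gata2 at -0.72, Shisal1 at -0.70, Def8 and Fbxw8 at -0.66 and Nemp2 at -0.64. These coefficients too rested mostly on the water animals and ethanol animal 10. All 15 had a limma adjusted p of 1. The gene lists used here hold few of the 10151 genes, so that 0 of the 15 belong to them says little about Slc2a5. The genes most like the microglia score were Oxnad1 at 0.82, Fyco1 at 0.79, Acyp1, Sec11c and Ccndbp1 at 0.78, Me1, Tmem126a and Sh3d19 at 0.77, and Atp1b3 and Pskh1 at 0.76. None of these 10 is among the 10 most like Slc2a5, but sets of 10 drawn from 10151 genes would seldom share any. The lack of a shared gene thus does not set the patterns apart.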

How the data were processed

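Per the labels' protocols, total RNA from Trizol and RNeasy extraction (50 ng per animal) was turned into biotinylated cRNA by Affymetrix's 3' IVT Express procedure. Per the submitters' processing notes, the authors made the deposited log2 values with RMA, of which no version is given in the sources used here; base 2 was inferred from their span (3.82 to 16.16). RMA is known to compress differences of dim probe sets. Gene names come from the array's probe table, with 1 symbol for 20826 of 31099 probe sets, and loci from a RefSeq table of GRCr8. Probe sets above the 40th percentile of the mean (18625) entered two-sided limma tests (limma 3.58.1, R 4.3.3), and p-values were adjusted by Benjamini-Hochberg over all of them. Models held group (ethanol minus water), group and Slc2a5 (association), or their interaction. Correlations in a group of 10 used 100000 permutations (Python 3.11.15, numpy 2.4.6). The scripts were tested on simulated data. Samples were grouped by their treatment label, and 0 columns were left out.

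The members and the gene lists were chosen with earlier results of these data known. Beyond the 9 members, the genes named are the 10 highest and 5 lowest in r with Slc2a5, the 10 highest with the microglia score, at most 2 per list by p where none passed, and Tmem119, the C1q chains, Csf1, Il34, Cx3cl1, Spi1, Slc2a1, Slc2a3 and Khk; 1 further gene is not reported here. Slc2a13, Aldoa, Sirpa, Cd53, Ctsh, Ly86, Pf4, Hbb and the tight probe set without a symbol were named after their values were seen.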

Additional observations from a re-analysis of the deposited data

Results flagged for a closer look

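In 26 groups of 10 animals (12 probe sets and the microglia score, in 2 treatments) the animal at the edge was compared with the rest by Dixon's test, which chance passes in about 1 group in 20. Slc2a5 in ethanol animal 10, at 8.558, stood apart from the 9 others by 0.855 of the group's range, against a critical value of 0.466. The second P2ry12 probe set, in water animal 15 at 8.995, did so by 0.468, just past that value. The second Trem2 probe set, in water animal 18 at 7.034, did so by 0.496. Water animals 15 and 18 are among the 3 arrays with the lowest mean correlation with the others, and ethanol animal 10 is not. The part of array quality in these values was not tested.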

How the results depend on the processing

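The Slc2a5 difference ran from -0.327 (without water animal 13) to -0.267 (without water animal 12) when 1 animal was left out. Under the other alternatives, of 32 in all, it ran from -0.348 to -0.281. Slc2a5 was chosen by its difference over these same animals, so the kept direction is no measure of stability. The median difference of the 8 microglia genes, -0.0415, ran from -0.0567 to -0.0208 with 1 animal left out and reached 0.00532 otherwise. Their median r with Slc2a5, 0.0891, ran from -0.0214 to 0.131 with 1 animal left out and was -0.0894 without ethanol animal 10 and water animal 13, an alternative chosen after seeing the data; the cause was not tested. The 4 calls between ethanol and water became 2 with the filter at the 60th percentile, 23 with array quality weights, 0 with the myelin mean as a covariate, and 1 to 8 with 1 animal left out (1 without ethanol animal 6 or water animal 14, 16, 17 or 18, 2 without ethanol animal 3, 8 without water animal 20). The association with Slc2a5 had 0 calls in all 33 alternatives. The interaction had 1 call with array quality weights and 1 without the 3 arrays that stand apart, in place of 0. The P2ry12 difference was 0.0771 with its most variable probe set, and the r of Trem2 with Slc2a5 was 0.4 with its own. No paired analysis was possible because no animal number occurs in both groups. Cd68 and the second Aif1 probe set lay under the filter on signal, where differences are least certain.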
